A study of Homo sapiens with 4 samples.

Results

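Very GC-rich miRNAs are the miRNAs whose array target consists of G and C at a share of 0.75 or more. Of the 1212 human miRNAs on the arrays, 42 met this rule once names ending in an asterisk, the mark of a passenger (star) strand, were left out. The rule uses the target sequence and no measured value. They were measured in 4 lines made from HepG2, each represented by 1 sample. HepG2 is a human liver cancer cell line in long-standing laboratory use, which the authors label hepatocellular carcinoma. HepG2-vector is the control (its construct field reads none), HepG2-Twist1 was transfected with pcDNA-Twist1, HepG2-Bcl-2 with pcDNA-Bcl-2, and HepG2-Twist1/Bcl-2, called the double line below, with both plasmids. Stable expression of the transgenes is stated for the 3 transfected lines, and a miRNA array carries no probe that could check it. Twist1 is a transcription factor that induces epithelial-mesenchymal transition (EMT), and Bcl-2 restrains apoptosis. Array 1 held HepG2-vector (Cy3) and HepG2-Twist1 (Cy5), and array 2 held HepG2-Twist1/Bcl-2 (Cy3) and HepG2-Bcl-2 (Cy5). The dyes were not swapped within either pair, so line and dye cannot be told apart within an array, nor array and Bcl-2 between arrays. A single pair of lines, 1 sample each, leaves no residual degree of freedom and was not tested, and every ± below is the SD of the 3 repeat spots of a miRNA, a technical error within 1 hybridization. Whether a difference lies in all cells of a line or in some of them cannot be told apart in these bulk RNA samples.

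A mature miRNA is a short RNA that guides an Argonaute protein to partly complementary mRNAs, mainly through the seed, bases 2 to 8 from its 5′ end. Most human miRNAs have a mixed base composition: the median G plus C content over all 1212 targets was 50%. In the GC-rich set it was 81.0%, with a range from 75% to 90.9%, and the targets were 17 to 25 nt long. Very GC-rich targets form unusually stable duplexes with their probes, and runs of G can fold into quadruplexes. The methods state that the probes were chemically modified to balance their melting temperatures. Many of these miRNAs were named from deep sequencing and have little functional literature.

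The sequences below belong to miR-638, miR-1915, miR-3665 and miR-663, to the members that passed 2-fold on array 2 and have a RefSeq entry, and to the pairs that share a seed. The seed is in capitals.
miR-638: aGGGAUCGcgggcggguggcggccu
miR-1915: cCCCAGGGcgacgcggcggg
miR-3665: aGCAGGUGcggggcggcg
miR-663: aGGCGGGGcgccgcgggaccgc
miR-1908: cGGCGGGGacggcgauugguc
miR-3196: cGGGGCGGcaggggccuc
miR-3180-3p: uGGGGCGGagcuuccggaggcc
miR-4281: gGGUCCCGgggagggggg
miR-3195: cGCGCCGGgcccggguu
miR-2861: gGGGCCUGgcggugggcgg
miR-1181: cCGUCGCCgccacccgagccg
miR-4258: cCCCGCCAccgccuugg

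miR-663 and miR-1908 share the seed GGCGGGG, and miR-3196 and miR-3180-3p share GGGGCGG. Among all targets, miR-3180 also carries GGGGCGG and no further miRNA carries GGCGGGG. The sequences differ in their balance of bases: miR-4281 has 13 G and 3 C with a longest run of 6 G, whereas miR-1181 has 6 G and 12 C, and miR-4258 has 4 G and 10 C. RefSeq (GRCh38.p14) matched 38 of the 42 members, 37 by an identical mature sequence and 1, miR-3195, by a target that lies within its hairpin. miR-638 lies at chr19:10718419-10718443 within the span of DNM2, which encodes the membrane-fission protein dynamin 2. miR-1908 lies at chr11:61815209-61815229 within FADS1, a fatty acid desaturase gene. miR-4281 lies at chr5:176629449-176629466 within SNCB, the gene of beta-synuclein, and miR-3665 at chr13:77698075-77698092 within SLAIN1. miR-1181 lies at chr19:10403505-10403525 within CDC37, a kinase co-chaperone gene, and miR-4258 at chr1:154975703-154975719 within CKS1B, a cell cycle gene. For miR-663 at chr20:26208243-26208264, miR-1915 at chr10:21496576-21496595 and miR-2861 at chr9:127785971-127785989 the comparison returned no spanning gene, which does not show that none is annotated. These spans were compared without regard to strand, and exon or intron was not assigned.

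The GC-rich probes gave signal more often than other probes did. A normalized intensity of 100, in the arbitrary units of the scanner after background correction and loess, was reached on array 1 by 18 of 42 members (42.9%) in both HepG2-vector and HepG2-Twist1. On array 2 it was reached by 16 (38.1%) for HepG2-Twist1/Bcl-2 and by 20 (47.6%) for HepG2-Bcl-2. Over all 1212 miRNAs the share was 11.9%, 11.9%, 12.8% and 13.6% in that order of lines. In the 105 miRNAs with a share of 0.65 to under 0.75 it was 7.62%, 8.57%, 12.4% and 9.52%. In the 221 miRNAs under 0.40 it was 6.33%, 5.88%, 7.69% and 8.60%. Below the threshold of the rule there was no steady rise with G plus C content. At 40% to under 50%, 18.7% to 22.3% of the miRNAs reached 100, depending on the line. At 70% to under 75%, 11.9% to 16.7% did. Signal was also uneven inside the GC-rich set. Of the 17 members with a share under 0.80, 3 reached 100 in at least 1 line (17.6%), beside 17 of the 25 with 0.80 or more (68%). With the values normalized by the authors, 18, 18, 17 and 20 of the 42 members reached 100. Intensity compares a probe between lines and is not an abundance that can be compared between probes, so these shares describe signal above a fixed level.

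**Figure D1:**
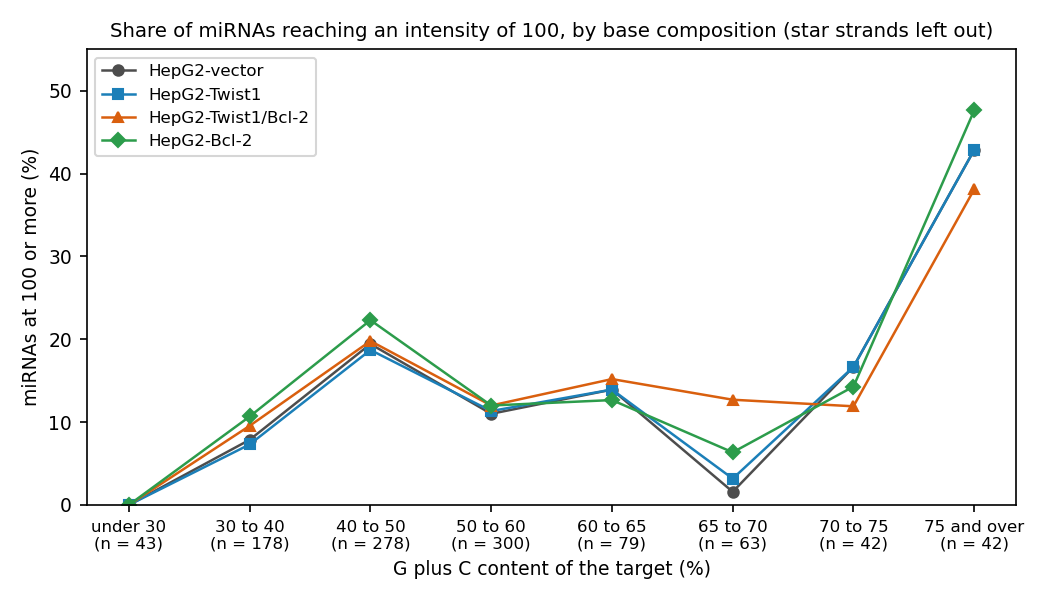
Percentage of miRNAs at a normalized intensity of 100 or more (vertical axis) in ranges of the G plus C content of their target (horizontal axis), 1 line and symbol per HepG2 line, star strands left out. Every line has its highest point, 38.1% to 47.6%, at 75% and over.

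At the lower level of 32, 40 of 42 members were measured in at least 1 line, against 624 of 1212 miRNAs (51.5%). The 2 members below 32 in every line were miR-1909 and miR-4322. The methods set that cut for the authors' values, where 29 of 42 members and 335 of 1212 miRNAs reached it. In the values used here, 32 lay near the array 2 medians of all miRNAs, 29.7 (Cy3) and 29.5 (Cy5). The medians of array 1 were 21.2 and 21.3. The level was reached by 25 (Cy3) and 26 (Cy5) members on array 1, and by 37 and 38 on array 2. The count of 40 thus includes dim probes near the middle of all probes on array 2. In total, 20 members reached 100 in at least 1 line and 16 in all 4 lines, and the other 22 members stayed between 15.3 and 88.9. Brightness also went with sequence features within the set. Of the 12 members of 17 to 19 nt, 10 reached 100 in at least 1 line, against 10 of the 30 longer ones. All short members but miR-1280 (76.5%) had a G plus C content of 82.4% or more, whereas the longer ones began at 75%. Length and G plus C content thus went together in the set, and these counts do not separate them. Among the other miRNAs the same lengths gave 18 of 118 and 140 of 865, so short targets alone did not have a higher share outside the set. A run of 4 or more G was present in 20 members, of which 12 reached 100, and 8 of the 22 members without one did. Outside the set, 8 of 64 miRNAs with such a run reached 100 (12.5%), beside 150 of 919 without it (16.3%). Members with more G than C reached 100 in 15 of 26 cases and those with more C than G in 4 of 13.

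Among the bright members, miR-3665 had an intensity of 26977 ± 412 in HepG2-vector and 37239 ± 2003 in HepG2-Twist1 on array 1. On array 2 it had 33799.6 ± 2704 in HepG2-Bcl-2 but 23177 ± 3428 in HepG2-Twist1/Bcl-2. It was the brightest miRNA probe in every channel before normalization. miR-638, often described as a tumour suppressor, was at 18846 ± 615, 26834 ± 1481, 9585 ± 1194 and 15810.0 ± 1352 in HepG2-vector, HepG2-Twist1, the double line and HepG2-Bcl-2. In these values both were highest in HepG2-Twist1 and lowest in HepG2-Twist1/Bcl-2. For miR-638 the same held in the authors' values. There miR-3665 was highest in HepG2-Bcl-2, at 31926 beside 30454 in HepG2-Twist1. miR-1915, reported to repress BCL2 in colorectal cancer cells, was at 12135 ± 203, 17157 ± 1470.5, 4004 ± 500.3 and 7257 ± 567 in the same order. miR-663, reported to be induced by resveratrol, was at 7178 ± 219, 6247 ± 552, 2186 ± 324 and 3959.9 ± 531. For both of these the 2 lines on array 1 lay above the 2 lines on array 2.

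**Figure D2:**
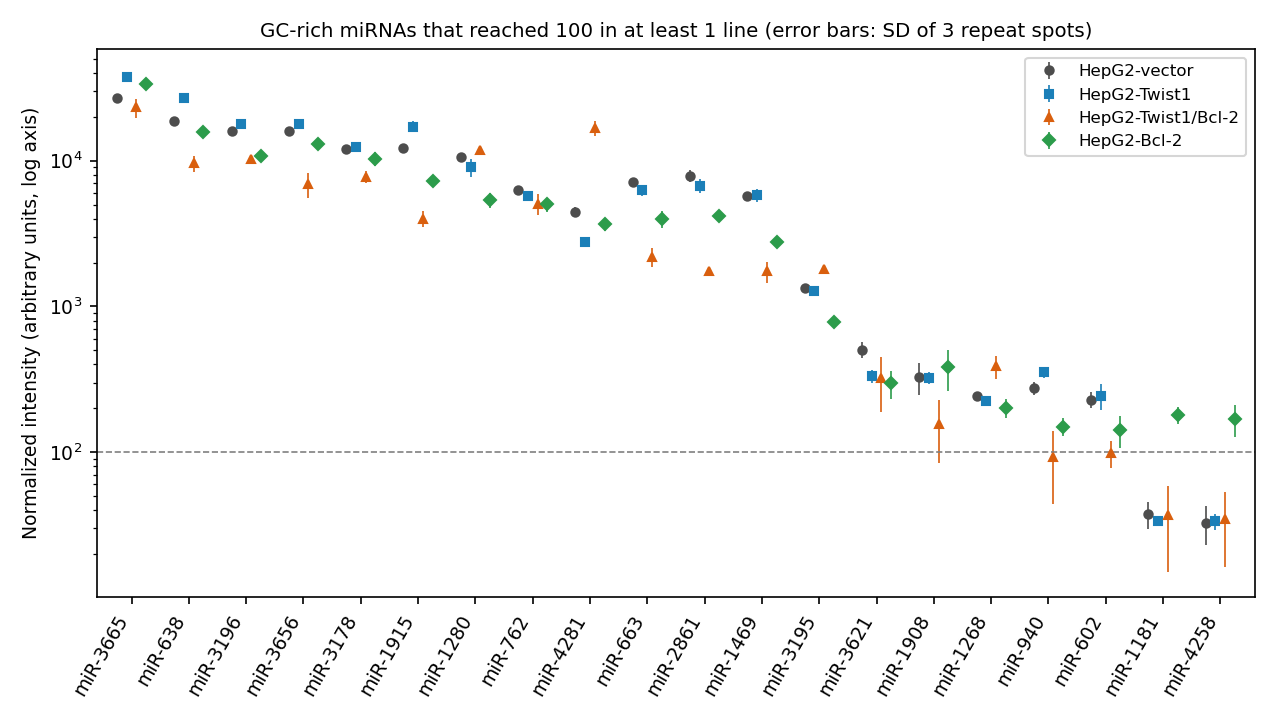
Normalized intensity (vertical log axis, arbitrary units) of the 20 members that reached 100 in at least 1 line, with 1 symbol per HepG2 line and bars for the SD of 3 repeat spots. miR-4281 stands out upward in HepG2-Twist1/Bcl-2 (16645), and miR-1181 and miR-4258 lie above the dashed line at 100 in HepG2-Bcl-2 alone.

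The first comparison asked what Twist1 changed in cells without the Bcl-2 plasmid. On array 1, 0 of 26 measured GC-rich members differed at least 2-fold between HepG2-Twist1 and HepG2-vector. Over all measured miRNAs 5 of 304 (1.64%) did, all of them lower in HepG2-Twist1. The median log2 ratio of the 26 members was 0.00, beside -0.02 for all 304, with 13 members above 0 and 13 below. The median SD of the repeat spots of a member was 0.09, and the ratios of individual members spread more widely than that, with an SD of 0.27.

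The members highest in HepG2-Twist1 were miR-638, with a log2 ratio of 0.51 ± 0.04, miR-1915 with 0.50 ± 0.10 and miR-3665 with 0.46 ± 0.10. miR-940, at 274 in HepG2-vector and 353 in HepG2-Twist1, had a log2 ratio of 0.31 ± 0.18, and miR-3196, at 15889 and 17891, had one of 0.17 ± 0.02. These sizes correspond to 1.42-fold for miR-638 and 1.13-fold for miR-3196. They depend on the normalization of the brightest spots. In the authors' values the log2 ratio was 0.19 for miR-638, 0.36 for miR-1915 and -0.00 for miR-3665, and without any normalization all 3 were below 0, at -0.31, -0.38 and -0.30.

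At the other end, miR-4281 read 4453 ± 321 in HepG2-vector beside 2778 ± 78.6 in the Twist1 line, a log2 ratio of -0.67 ± 0.08. miR-3621 read 505 and 332, a log2 ratio of -0.54 ± 0.07. The next lowest were close to 0. miR-1280, whose sequence overlaps a tRNA, was at -0.23 ± 0.14, miR-2861, known to promote osteoblast differentiation, at -0.22 ± 0.21 and miR-663 at -0.20 ± 0.08. The remaining members at 100 or more in both lines lay between miR-762 at -0.13 ± 0.09 and miR-3656 at 0.16 ± 0.07.

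The second comparison asked the same in cells that carry the Bcl-2 plasmid, with HepG2-Twist1/Bcl-2 set over HepG2-Bcl-2 on array 2. Here 7 of 39 measured members (17.9%) differed at least 2-fold, beside 50 of 592 measured miRNAs (8.45%). Of the 7, 3 were higher (3.55% of all measured miRNAs were) and 4 were lower (4.9% of all were). The background offset holds the ratios of dim miRNAs near 0. Among miRNAs at 100 or more in at least 1 of the 2 lines, the count was 7 of 20 members (35.0%), beside 49 of 183 miRNAs (26.8%). The median log2 ratio was -0.08 over the 39 members and -0.04 over all 592. Over the 16 members at 100 or more in both lines it was -0.48, beside 0.09 over the 137 such miRNAs, with 10 members below 0 and 6 above.

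miR-4281 had the largest ratio of the set. Its intensity was 16645 ± 1929.5 in the double line and 3671 ± 369.9 in HepG2-Bcl-2, a log2 ratio of 2.17 ± 0.10, or 4.49-fold. The lines of array 1 lay near HepG2-Bcl-2, at 4453 and 2778. miR-3195 read 1807 ± 71.5 and 777 ± 15.5, a log2 ratio of 1.17 ± 0.08. Its hairpin lies within the span of TAF4, a subunit gene of the general transcription factor TFIID, strand disregarded. miR-1280 read 11746 ± 895 and 5383 ± 637, with 1.12 ± 0.16. For miR-3195 and miR-1280, HepG2-Twist1/Bcl-2 was the highest and HepG2-Bcl-2 the lowest of the 4 lines. miR-1268 followed below 2-fold, with 387 and 200.4 and a log2 ratio of 0.80 ± 0.07, and miR-3621 was next at 0.10 ± 0.23.

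Of the 4 members at least 2-fold lower in HepG2-Twist1/Bcl-2, a pair was bright only in HepG2-Bcl-2. miR-1181 read 181 ± 24.0 there and 36.9 ± 21.9 in HepG2-Twist1/Bcl-2, 33.6 ± 2.50 in HepG2-Twist1 and 37.6 ± 8.15 in HepG2-vector, and its log2 ratio on array 2 was -1.41 ± 0.28. miR-4258 read 168 ± 41.9 in HepG2-Bcl-2 and 34.8 ± 18.6, 33.5 ± 4.36 and 32.7 ± 9.67 in the others in the same order, with -1.36 ± 0.45. Before background correction both lay near the empty spots of the Cy3 channel of array 2, at 172 for miR-1181 and 168 for miR-4258 beside a median of 159, so the size of their ratios depends on the offset added. With an offset of 16 the log2 ratios were -1.89 and -1.83. Both are richer in C than in G. HepG2-Bcl-2 was also the only line in which an epithelial marker, miR-200b, reached 100, at 693. The rest of the epithelial list read at most 80.1 in that line. The summed intensity of 5 epithelial miRNAs was 906 there, most of it from miR-200b, beside 94.2 to 118 in the other lines. The part of that difference in these results was not tested.

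The other pair was bright in every line. miR-2861 read 1746 ± 102 in the double line and 4203 ± 257 in HepG2-Bcl-2, a log2 ratio of -1.24 ± 0.02. miR-1908 read 155 ± 71.0 and 383 ± 118, with -1.08 ± 0.16. miR-663, which has the seed of miR-1908, was at -0.84 ± 0.04 and so on the same side, whereas in the other seed pair miR-3196 was at -0.07 ± 0.14 and miR-3180-3p stayed under 52 in every line. Below 2-fold there were also miR-3656 at -0.92 ± 0.35, with 6877 and 13095, and miR-1915 at -0.85 ± 0.24. miR-638 was at -0.72 ± 0.06, miR-1469, which lies within the span of NR2F2, at -0.64 ± 0.36, and miR-3665 at -0.54 ± 0.27.

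The balance of directions moved with the normalization. Median centring without loess gave 4 members higher and 1 lower, with 57 of all miRNAs past 2-fold, and no normalization gave 6 and 0, with 117. Loess fitted without these miRNAs gave 2 and 5 (51 of all), cyclic loess over the 4 channels 3 and 3 (48 of all), and the authors' values 4 and 3 (66 of all). miR-4281 stayed between 2.00 and 2.76 and miR-3195 between 1.10 and 2.07. miR-1280 lay between 0.96, with loess fitted without the members, and 1.71. miR-1908 ranged from -1.27 to -0.05, miR-2861 from -1.34 to -0.48 and miR-1181 from -2.01 to -0.46. For miR-1908, miR-1181 and miR-4258 the value nearest 0 came without normalization, and there miR-4258 was at -0.41. At the other end of its range miR-4258 dropped by 2.00 on the log2 scale.

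**Figure D3:**
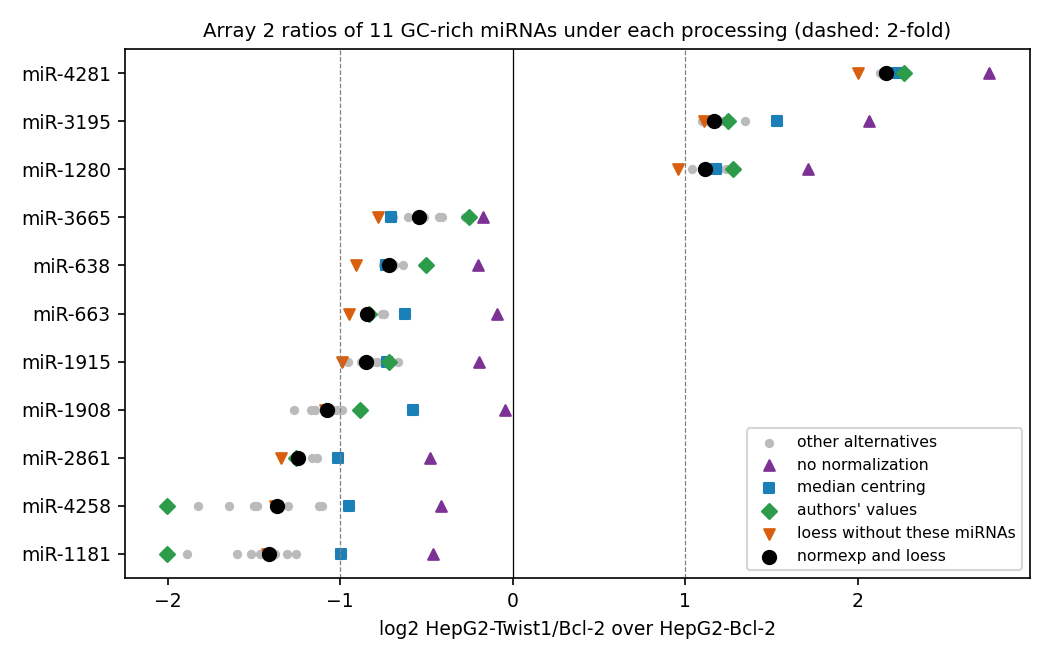
Log2 ratio of HepG2-Twist1/Bcl-2 over HepG2-Bcl-2 (horizontal axis) of the 7 members past 2-fold and of miR-638, miR-1915, miR-3665 and miR-663, with 1 point per way of processing the same spots. No point crosses 0, and without normalization all lie to the right of the normexp and loess value, with miR-1908 at -0.05.

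Set side by side, the arrays gave 0 of the 25 GC-rich members measured on both a Twist1 ratio above 0 on each, whereas 28 of all 272 such miRNAs had one (10.3%). Both counts moved with the processing. After cyclic loess over the 4 channels they were 4 of 33 members and 64 of 359 miRNAs (17.8%), and in the authors' values 1 of 22 and 50 of 222 (22.5%). Median centring gave 0 of 27 members beside 5 of 288 miRNAs (1.74%), and no normalization gave 0 of 40 beside 0 of 634. Under the other alternatives at most 1 member was above 0 on each. Below 0 on each were 6 members, beside 65 of 272 miRNAs (23.9%). These were miR-663, miR-2861, miR-1908, miR-572, miR-1181 and miR-4292. On array 1 the last 4 named lay within 1 SD of 0. They were at -0.02 ± 0.25, -0.02 ± 0.07, -0.07 ± 0.10 and -0.01 ± 0.09 in that order. A further 12 members were above 0 on array 1 and below 0 on array 2, that is higher in the Cy5 channel each time, beside 90 of 272 miRNAs (33.1%). The remaining 7 were higher in Cy3 each time, beside 89 of 272 (32.7%). miR-638, miR-1915 and miR-3665 are of the Cy5 kind and miR-4281, miR-3195 and miR-1280 of the Cy3 kind. For these, the presence of Bcl-2 and the dye of the Twist1 line changed together from array 1 to array 2 and cannot be told apart. The count of 12 became 3 of 27 after median centring, where 8 of all 288 miRNAs were of this kind, and 7 of 22 in the authors' values, where 58 of all 222 were. An additive fit of Twist1 and array over the 4 samples, chosen after seeing the data, treats the arrays as pairs and leaves 1 residual degree of freedom. In limma, 0 of the 25 members and 0 of all 272 miRNAs (0%) had an adjusted p below 0.05, and 0 members and 3 miRNAs had an unadjusted p below 0.05. Fitted over the 124 miRNAs at 100 or more in all 4 lines, the limma counts were again 0 of 16 members and 0 of 124 miRNAs for the adjusted p, and 0 and 3 for the unadjusted p. Over the 272 miRNAs the smallest adjusted p among the members was 0.999, where miR-2861 had a fitted log2 difference of -0.73 and miR-663 one of -0.52.

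**Figure D4:**
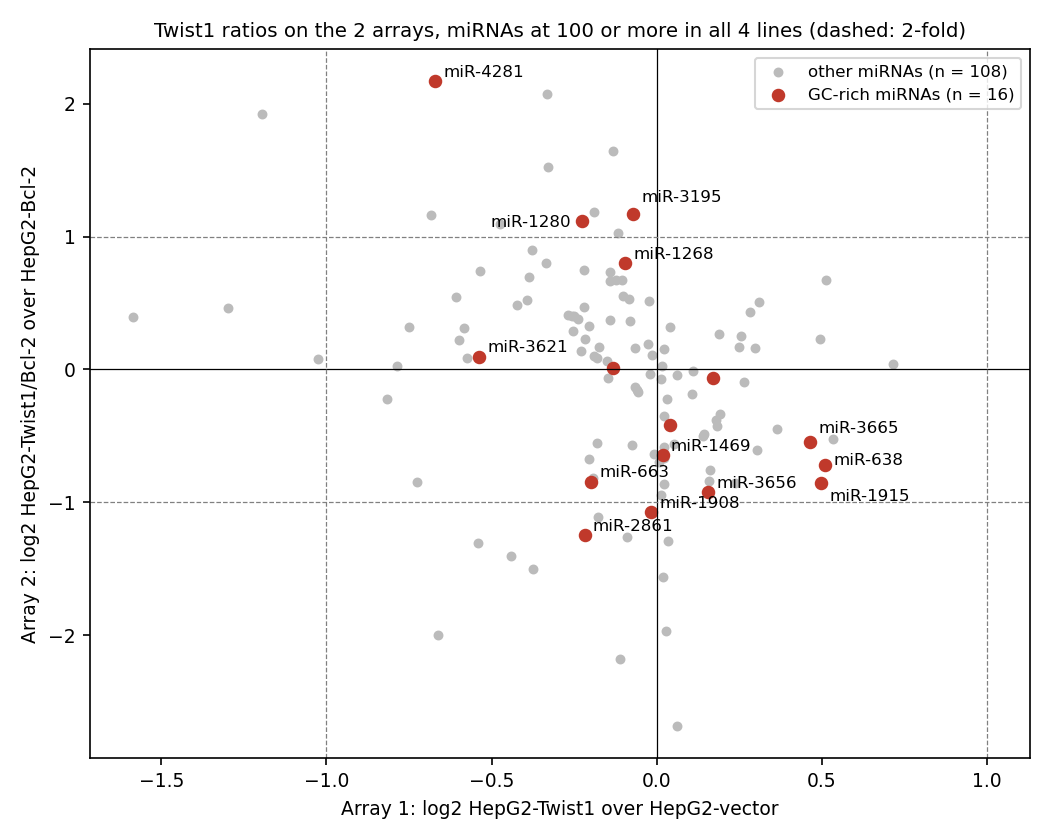
Log2 Twist1 ratio on array 1 (horizontal axis) and array 2 (vertical axis) for the 124 miRNAs at 100 or more in all 4 lines, with the 16 GC-rich members in red. The upper right quadrant, higher with Twist1 on both arrays, holds 0 of the 16 members, and miR-4281 lies farthest up at 2.17.

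The comparisons of lines with and without the Bcl-2 plasmid run between the arrays, so they were made after quantile normalization of the average log intensity of the arrays. The bright GC-rich members were lower on array 2. For HepG2-Bcl-2 over HepG2-vector, 16 of the 18 members at 100 or more in both lines were below 0, with a median log2 ratio of -0.55, beside -0.05 over 138 miRNAs. For HepG2-Twist1/Bcl-2 over HepG2-Twist1, 12 of 16 members were below 0, with a median of -0.59 beside -0.05 over 126 miRNAs. The same was seen where dye was held constant. HepG2-Twist1/Bcl-2 over HepG2-vector, both in Cy3, gave -0.60 for 16 members and -0.06 for 129 miRNAs, and HepG2-Bcl-2 over HepG2-Twist1, both in Cy5, gave -0.54 for 18 members and 0.01 for 136 miRNAs. These 4 comparisons share their samples and are no independent replicates.

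Taking the mean of the 2 lines on each array, 15 of the 16 members at 100 or more in all lines were lower on array 2, with a median log2 difference of -0.56. Among the 108 other such miRNAs 56 were lower, with a median of -0.02. The most negative differences were those of miR-1469 at -1.47, miR-2861 at -1.39, miR-1915 at -1.25 and miR-663 at -1.13. miR-1469 went from 5622 and 5692 on array 1 to 2524 in HepG2-Bcl-2 and 1599 in the double line, so the arrays did not overlap. The smallest were miR-3665 and miR-1268 at -0.08 each and miR-1280 at -0.10. miR-4281 was the exception, at 1.31, with the double line at 17924 and HepG2-Bcl-2 at 3956, beside 4282 and 2671 on array 1. Just under the level of 100, miR-940 went from 327 and 418 to 74.4 and 125.

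The difference between the arrays went with base composition over all bright miRNAs. Its median was 0.85 in the 11 miRNAs of 30% to under 40% G plus C, 0.01 in the 48 of 40% to under 50%, -0.20 in the 31 of 50% to under 60%, -0.31 in the 8 of 60% to under 65% and -0.56 in the 16 GC-rich members. The range of 65% to under 75% held only 6 such miRNAs and did not follow the order, at -0.21. Across the 124 miRNAs Spearman's rho between G plus C content and the difference was -0.49, and across the 108 that are not members it was -0.44. The points share the same 2 arrays, so this is a description of them. With the authors' values the medians were -0.64 for the members and -0.07 for the other miRNAs, and with loess within arrays alone, which moved the median of all 124 miRNAs from -0.10 to 0.07, they were -0.41 and 0.13. Array and Bcl-2 cannot be told apart in any of these values.

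**Figure D5:**
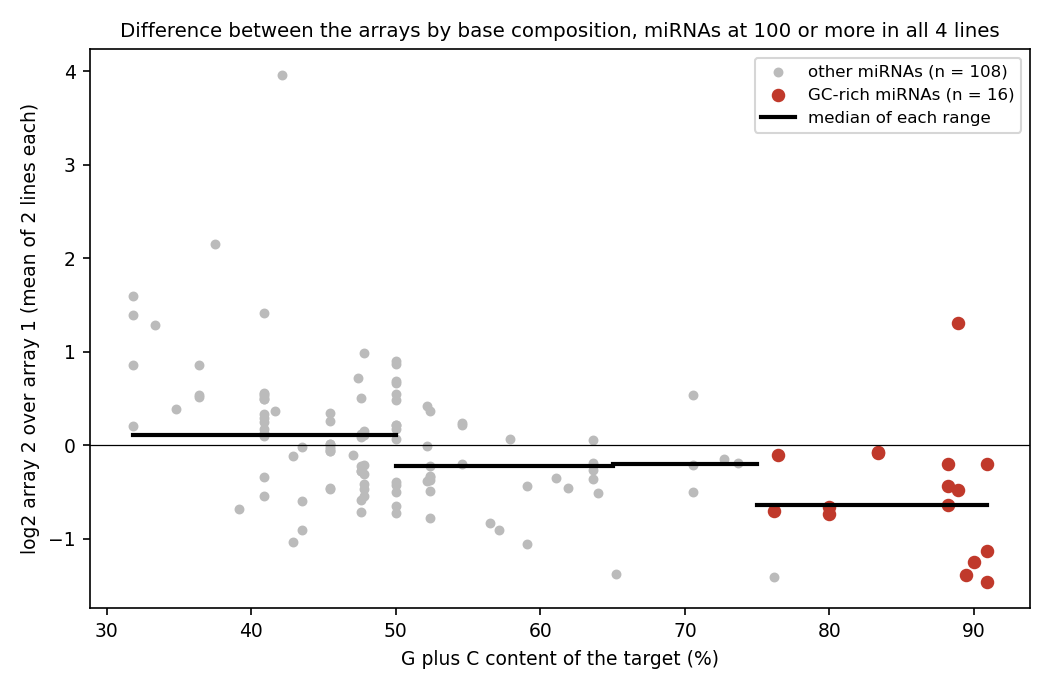
Log2 difference between array 2 and array 1 (vertical axis, mean of the 2 lines on each) against the G plus C content of the target (horizontal axis, %) for the 124 miRNAs at 100 or more in all 4 lines. Black bars are medians of ranges of G plus C content (star strands included), and 15 of the 16 red members lie below 0.

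The threshold of the rule falls inside a dim region. Of the 10 members with a share of 0.75 to 0.77, miR-1908 and miR-1280 reached 100 in at least 1 line. Of the 7 miRNAs just outside, with 0.73 to under 0.75, miR-3141 did. It read 2420 and 1419 in the HepG2-vector and HepG2-Twist1 samples of array 1, and on array 2 it read 2124 with Twist1/Bcl-2 and 1692 with Bcl-2.

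The liver label was checked against 5 liver miRNAs. The defining one, miR-122, was below 32 in all 4 lines, at most 30.3, and it is known to be low in HepG2 cells. miR-192 and miR-194 reached 100 in all lines, whereas miR-148a read at most 59.2 and miR-885-5p at most 30.9. The summed intensity of the 5 ranged from 385 to 714, most of it from miR-192 and miR-194. Of 5 blood cell miRNAs and 7 mesenchymal or muscle miRNAs, 0 reached 100 in any line.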

How the data were processed

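The authors had RNA of each line labelled with Cy3 or Cy5, hybridized to µParaflo arrays of LC Sciences, scanned (GenePix) and digitized (Array-Pro). They deposited 1 scanner table per array, with linear spot intensity (digit-grouping commas were removed here), and a table of normalized intensity values after background subtraction and LOWESS. Signals are arbitrary units, and the number of arrays (2) limits the precision.

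The spot intensities went through normexp background correction (offset 50) and within-array loess (span 0.3, 4 iterations, control spots at weight 0) in limma 3.58.1 under R 4.3.3, and were averaged over 3 repeat spots on the log2 scale in Python 3.11.15, and 50 was subtracted for intensities. The offset draws ratios of dim miRNAs toward 0. Measured means 32 or more in 1 or both samples of a comparison, and a miRNA passed 2-fold with all 3 spots of one sign. For values between arrays, quantile normalization of average intensities (Aquantile) followed. The steps were tested on simulated data. The t-test in the methods calls for more than 1 sample in each group. Each line had 1 sample here, so it was not run. Twist1 with array as a block was fitted to the log2 ratios of both arrays in limma (lmFit, eBayes, Benjamini-Hochberg). In the authors' values, those below 32 were set to 32 and 2-fold went by size alone.

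Members and lists were chosen with earlier results of these data known. Named were miR-638, miR-1915, miR-3665 and miR-663, the 20 members of highest mean intensity among those reaching 100, the 5 highest and 5 lowest ratios per array at 100 or more in both samples, members past 2-fold, bright miRNAs beside the threshold (0.73 to 0.77), and the list of 12 mirtrons. miR-3141, miR-200b and the marker miRNAs came from those lists. Sequences are the array targets, matched to RefSeq (GRCh38.p14). Alternatives were other normalizations, backgrounds, minima, repeat spots and share limits.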

Additional observations from a re-analysis of the deposited data

Results flagged for a closer look

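Of the 16 GC-rich members at 100 or more in all 4 lines, 8 had all 3 repeat spots above 0 for Twist1 on one array and all below 0 on the other. The same held for 55 of all 124 such miRNAs (44.4%). The difference was not tested, since with 1 sample per line an interaction of Twist1 and array leaves no residual degree of freedom, and the dye of the Twist1 line changes with Bcl-2. The log2 Twist1 ratio of array 2 minus that of array 1 was 2.84 for miR-4281, 1.34 for miR-1280, 1.24 for miR-3195 and 0.90 for miR-1268, which were higher in Cy3 on both arrays. It was -1.35 for miR-1915, -1.23 for miR-638, -1.08 for miR-3656 and -1.01 for miR-3665, which were higher in Cy5 on both. Of these 8, the first 3 named passed 2-fold on array 2 and none did on array 1.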

How the results depend on the processing

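Of 94 values of the main results under the alternatives, the fit with arrays as pairs aside, 79 stayed within 1.5 times the count or the spread of the repeat spots. After median centring without loess, 2 of 29 members (all miRNAs 23) passed 2-fold on array 1, the median there was -0.28 (all miRNAs -0.32), and 3 members lay above 0 on array 1 and below 0 on array 2 (all 8). Without normalization these were 11 of 42 (all 131), -0.73 (all -0.63) and 0 (all 0), and the median on array 2 was 0.61 (all 0.59). Subtracting the median empty spot left 22 members measured, 21 of them on array 2 with a median of -0.51 (all 0.14), and a minimum of 100 left 20 on array 2 with -0.52 (all 0.03). The authors' values put 7 of 22 members above 0 on array 1 and below 0 on array 2 (all 58 of 222), and gave a median of -0.81 for HepG2-Bcl-2 over HepG2-vector. Share limits of 0.70 and 0.80 gave 78 of 84 and 24 of 25 miRNAs measured, by their construction. Leaving out 1 repeat spot position gave 7 to 8 members past 2-fold on array 2 and 0 on array 1. For the single members past 2-fold on array 2, 10 values fell under 2-fold and 0 changed sign. The cause was not tested. With the arrays as pairs (array as a block, chosen after seeing the data, limma), 0 of 25 members and 0 of 272 miRNAs passed an adjusted p of 0.05, beside the 0 and 7 members past 2-fold on array 1 and array 2. At an unadjusted p below 0.05 there were 0 members and 3 miRNAs.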

Other observations

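Passenger strands with a share of 0.75 or more were left out of the set, and 3 were on the arrays. miR-149* read 2159 (HepG2-vector) and 1285 (HepG2-Twist1) on array 1, and 1017 (HepG2-Bcl-2) and 545 (HepG2-Twist1/Bcl-2) on array 2. It was lower with Twist1 on both arrays, at -0.73 ± 0.03 and -0.84 ± 0.29 on the log2 scale, and lower on array 2 like most bright members. miR-1228* and miR-1914* stayed below 71 in every line. Mirtrons, miRNAs released by splicing of short introns, are often GC-rich. Of 12 on the arrays, 3 (miR-1225-5p, miR-1225-3p and miR-1228) belonged to the set and stayed below 61 in every line. Of the other mirtrons, miR-877 reached 113 in HepG2-Twist1/Bcl-2, and miR-1224-5p reached 119 there and 228 in HepG2-Bcl-2. On array 1, 0 of 5 measured mirtrons passed 2-fold, beside 5 of 304 measured miRNAs (1.64%). On array 2, 0 of 11 did, beside 50 of 592 (8.45%). With so few mirtrons measured, these counts do not set them apart from all miRNAs.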
